A study of Mus musculus with 8 samples.

Results

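The genes described here encode the proteasome, the large barrel-shaped protease that degrades proteins tagged with ubiquitin in the cytosol and nucleus. They were chosen by name, as all genes of the deposited count table named Psma, Psmb, Psmc or Psmd with a number, leaving out Psmb8 and Psmb9. This gave 37 of the 35583 genes in the table, of which 17 (Psma and Psmb) encode the core particle and 20 (Psmc and Psmd) the regulatory particle or factors that help assemble it. The naming rule itself uses no measured value, though the set was picked with earlier results of these libraries known. The name "constitutive" does not hold for every gene so chosen. Psmb10 is the inducible counterpart of Psmb7 in the immunoproteasome, Psma8 belongs to a form of the core known from testis, and Psmb11 to one known from thymus.

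The libraries were made from microglia, the resident macrophages of the brain, obtained by cell sorting out of hypothalamic tissue. The mice were young and wild-type, and had received plasma protein carrying a dye 20 hours earlier. The samples fall into 4 plasma-positive and 4 plasma-negative libraries, and the labels do not describe the sorting gate behind these names. The series' description gives the injection for both groups, so neither is an uninjected control. The labels give no age in weeks, do not say whether animals were pooled, and do not say that libraries of a group came from separate animals, so p-values measure the spread between these libraries, which may be technical. The comparison of the groups asks how the RNA of the proteasome's parts differs between the microglia so labelled.

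The core particle is a stack of rings. Outer rings of alpha subunits (Psma) form the gate, and inner rings of beta subunits (Psmb) enclose the chamber where peptide bonds are cut. The cutting is done by Psmb5 (chymotrypsin-like), Psmb6 (caspase-like) and Psmb7 (trypsin-like activity), which interferon-inducible subunits can replace. The regulatory particle caps the core. Its base holds a ring of ATPases (Psmc), which unfold substrates, and non-ATPase subunits. Its lid holds the deubiquitinase Psmd14, which removes ubiquitin before degradation. In immune cells such as microglia the proteasome also supplies peptides for antigen presentation.

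The promoters of the genes were searched for 3 short motifs, so that the sequence beside each start site can be read together with the RNA levels. The RefSeq promoter table (build GRCm38.p6, 250 bases before to 50 after a start site) held 30 of the 37 genes. Psma8, Psmb1, Psmb2, Psmb7, Psmc3, Psmd3 and Psmd7 were not in it. The motifs were TGACNNNGC, the core of the antioxidant response element bound by Nfe2l1 and Nfe2l2, CCAAT, and CCGGAA, the core bound by ETS factors, each on both strands, where a match of one may overlap another. The windows below run 5′ to 3′ along the gene's strand, with the match in capitals and 10 bases on either side. The first pair are the TGACNNNGC matches of the catalytic subunits, the others CCGGAA or its reverse complement in core and regulatory genes whose levels are given further down.
Psmb5: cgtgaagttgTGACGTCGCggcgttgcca
Psmb6: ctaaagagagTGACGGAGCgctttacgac
Psmb4: ccacttccgtTTCCGGtgacgctagc
Psmc5: gcccattgacCCGGAActgttctcgg
Psmd4: tacagctgttCCGGAAgctgctgcga
Psmd11: agggcgggtcTTCCGGgtgtgtgttt
These windows lie at chr14:54618024-54618052, chr11:70525338-70525366, chr3:94886940-94886965, chr11:106256080-106256105, chr3:95042724-95042749 and chr11:80428595-80428620. Psmb5, Psmb4 and Psmd4 are on the minus strand and Psmb6, Psmc5 and Psmd11 on the plus strand.

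TGACNNNGC was in 5 of the 30 promoters (16.7%), against 14.0% of the 27025 genes in the table and 17.1% of the 9357 that were also tested for expression. Those 5 were Psmb5, Psmb6, Psmc6, Psmd9 and Psmd12. CCAAT was in 12 of the 30 (40.0%), against 42.9% of the tested genes, with 7 of the 13 core promoters (53.8%) and 5 of the 17 regulatory ones (29.4%). The ETS core CCGGAA was in 15 of the 30 (50%), against 32.9% of the tested genes. It was in 11 of the 17 regulatory promoters (64.7%) and in 4 of the 13 core promoters (30.8%). These shares are descriptions of letters in a window and were not tested.

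Library totals ranged from 2963094 counts in plasma-negative replicate 4 to 21422738 in plasma-negative replicate 1. The counted reads, as a share of the read total that the deposited RPKM values imply, were 68.9% to 74.6% in the plasma-negative and 81.4% to 84.2% in the plasma-positive libraries. Malat1, a nuclear non-coding RNA, lay between 6099 and 7399 CPM (counts scaled to a common library size) in the plasma-negative and between 3010 and 3528 CPM in the plasma-positive libraries. Markers of microglia summed to between 58450 and 69420 CPM in the plasma-negative and between 64680 and 69650 CPM in the plasma-positive libraries, with all 8 detected and 1 (Csf1r) called higher. Of 5 genes of cycling cells, 3 were tested, and edgeR called all 3 of them (Top2a, Ccnb2 and Cdc20) higher. These 3 passed the filter on low counts only through the plasma-positive libraries, so the calls are a description and no independent test. That list summed to between 0 and 1.02 CPM against 25.7 to 57.1 CPM, with Ccnb2 and Cdc20 at 0 counts in all plasma-negative libraries. Sums over the marker lists of other cells overlapped between the groups, with no tested gene called. They ranged, plasma-negative first, from 2.69 to 33.6 and 3.10 to 264 CPM for 8 neuronal genes, 157 to 230 and 222 to 514 for 6 oligodendrocyte genes, and 208 to 322 and 199 to 256 for 6 astrocyte genes. They ranged from 18.5 to 37.0 and 17.8 to 58.75 CPM for 5 endothelial genes, 0 to 3.61 and 1.42 to 16.1 for 5 border macrophage genes, of which Lyve1 and Cd163 were at 0 counts throughout, and 0.291 to 13.85 and 0 to 474 for 5 monocyte or neutrophil genes. The highest neuronal and oligodendrocyte sums were in plasma-positive replicate 2, and the 474 CPM was in plasma-positive replicate 3, from S100a8 and S100a9. All 4 tested neuronal genes (median log2 change 2.09) and all 5 tested oligodendrocyte genes (0.80) were above 0. Cnp was higher in every plasma-positive library than in any plasma-negative one, at a log2 change of 0.71 (edgeR adjusted p = 0.1131). Of 3 tested astrocyte genes 2 were above 0 (median 2.29), Slc1a2 at 2.74 and Gja1 at 2.29. Slc1a3, which made up most of the astrocyte sum, was at -0.36. The 1 tested border macrophage gene, Mrc1, was at 2.93, and the 1 tested endothelial gene, Pecam1, at 0.31. Without plasma-positive replicate 2 the median log2 change of the core genes was 0.41, and without plasma-positive replicate 3 it was 0.40, against 0.45 with all libraries. The part of these differences in the proteasome results was not tested.

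No proteasome subunit passed the test for a difference between the groups. Of the 37 genes, 36 passed the filter on low counts, and edgeR's quasi-likelihood test called 0 of them at an adjusted p under 0.05, while it called 187 of all 13277 tested genes (1.41%). Adjusted p-values of the subunits ran from 0.102 for Psmb6 to 0.964 for Psma8. At an unadjusted p under 0.05 there were 9 subunits, all higher in plasma-positive microglia, against 7.13% of all tested genes in that direction. They were 7 of the 16 tested core genes (Psma1, Psma2, Psma6, Psmb4, Psmb6, Psmb7 and Psmb10) and 2 of the 20 regulatory genes (Psmc3 and Psmc5). DESeq2 called Psmb6 and Psmb10 (adjusted p = 0.0121 and 0.0214), where it called 6.43% of all genes. Limma on log2(RPKM + 0.1) called the same pair, at 3.25% of all genes, and on log2(RPKM + 1) it also called Psmb4, at 3.37%. In simulated libraries with these depths, edgeR called 0 of 119 genes changed by 0.5 on the log2 scale at 16 CPM or more, and 37 of 112 (33.0%) changed by 1.

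Summed over its genes, the core particle's RNA was higher in every plasma-positive library than in any plasma-negative one. The 17 core genes together were at 1151, 1106, 1086 and 1175 CPM in plasma-negative replicates 1 to 4 and at 1418, 1477, 1485 and 1532 CPM in plasma-positive replicates 1 to 4. The means were 1129 ± 40.7 and 1478 ± 47.0 CPM (SD, n = 4), 30.8% higher in plasma-positive microglia. The 20 regulatory genes together were at 1570, 1747, 1649 and 1828 CPM in the plasma-negative and at 1813, 1869, 1962 and 1963 CPM in the plasma-positive libraries. Their means were 1699 ± 113 and 1902 ± 73.8 CPM (SD, n = 4), 11.95% higher, and the groups overlapped, with plasma-negative replicate 4 above plasma-positive replicate 1. In bulk RNA, more cells with a high level and a higher level in each cell cannot be told apart. The sums carry no p-value, since the genes were chosen as a set with results of these libraries known.

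The core and regulatory parts stood in a different proportion in the 2 groups. The ratio of summed core to summed regulatory CPM was 0.733, 0.633, 0.6585 and 0.642 in the plasma-negative and 0.782, 0.790, 0.757 and 0.781 in the plasma-positive libraries. The ratio was lowest in plasma-negative replicate 2, and even the highest plasma-negative library, replicate 1, lay below all plasma-positive libraries. The RPKM values divide the same counts by exon length, so they are no independent measure. On them the ratio was between 0.909 and 1.05 in the plasma-negative and between 1.10 and 1.14 in the plasma-positive libraries, again without overlap. Both ratios were 0.22 to 0.23 higher in the plasma-positive libraries on the log2 scale, and neither was tested.

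**Figure D1:**
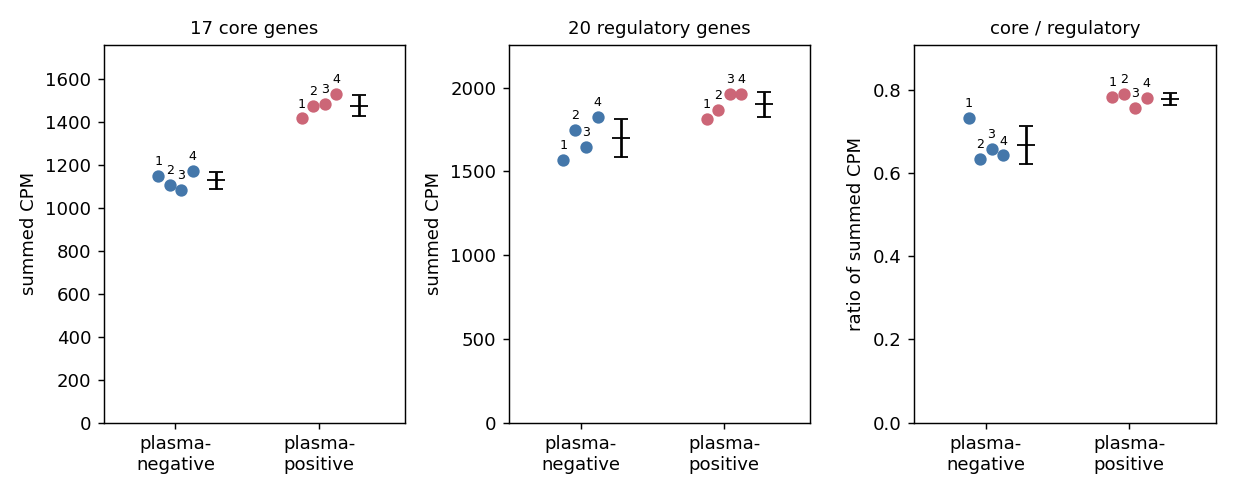
Summed CPM of the 17 core genes (left) and the 20 regulatory genes (middle), and their ratio (right), by group. Each point is 1 library with its replicate number, and the bar gives the mean and SD of 4 libraries. The plasma-positive core sums, 1418 to 1532 CPM, lie above the plasma-negative ones, 1086 to 1175 CPM, while the regulatory sums overlap.

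Fitted gene by gene, 14 of the 16 tested core genes had a log2 change above 0, with a median of 0.45 and a range from -0.35 (Psma3) to 0.62 (Psmb10). Of the 20 regulatory genes 15 were above 0, with a median of 0.18 and a range from -0.21 (Psmd5) to 0.65 (Psmc5). The regulatory median was 0.067 with library totals in place of TMM factors, with which the median of all genes was -0.11, and 0.11 without plasma-positive replicate 3. Over all tested genes 50.4% were above 0, with a median of 0.01, and over the 5176 genes at 32 CPM or more 56.4% were, with a median of 0.06. Without Psmb10, Psma8 and Psmb11 the core median was 0.45, and without the assembly factors Psmd5, Psmd9 and Psmd10 the regulatory median was 0.21, both computed after the values were seen. Leaving out 1 library moved the log2 change by over 1.5 times, or changed its sign, in 22 of the 36 genes, and in the other 14 (Psma1, Psma2, Psma4, Psma6, Psmb3, Psmb4, Psmb6, Psmb7, Psmb10, Psmc2, Psmc3, Psmc5, Psmd3 and Psmd11) no library did so. Among those 14, other settings moved Psma1 to 0.22 (library totals), Psma2 to 0.27 (thinned counts), Psmc3 to 0.18 (length and GC correction), Psmd3 to 0.011 (thinned counts), 0.12 (library totals) and 0.37 (log2(RPKM + 0.1)), and Psmd11 to 0.21 (library totals) and 0.48 (length and GC correction with the replicate block). All 4 plasma-positive libraries lay above all 4 plasma-negative ones for 3 core genes (Psmb4, Psmb6 and Psmb10) and 1 regulatory gene (Psmc3), against 5.68% of all tested genes. In no subunit did they all lie below, against 4.59%.

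The alpha ring was higher by 27.9% in summed CPM, at 581 ± 47.3 in the plasma-negative and 743.5 ± 30.35 in the plasma-positive libraries (SD, n = 4), and the groups did not overlap. Of its 7 genes 6 had a log2 change above 0: 0.34 for Psma1, 0.47 for Psma2, 0.50 for both Psma4 and Psma6, 0.61 for Psma5 and 0.44 for Psma7. Psma5 was at 0.96 without plasma-negative replicate 3, and Psma7 at 0.28 without plasma-negative replicate 4. Psma2 (chr13:14613240-14674236) was at 67.65, 83.2, 89.2 and 96.9 CPM in plasma-negative replicates 1 to 4 and at 89.55, 108.9, 134.2 and 133.2 CPM in plasma-positive replicates 1 to 4. Plasma-positive replicates 3 and 4 were highest, replicate 1 lay within the plasma-negative range, and the log2 change of 0.47 (SE 0.18) had an adjusted p of 0.2575 by edgeR.

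Psma3 (chr12:70974621-70996347) went the other way. It was at 106.8, 98.0, 88.5 and 42.4 CPM in the plasma-negative and at 63.5, 68.2, 53.75 and 80.1 CPM in the plasma-positive libraries. Its log2 change was -0.35 (SE 0.26, edgeR adjusted p = 0.6215), and plasma-negative replicate 4, the shallowest library, was the lowest of all 8. Without that library, the only plasma-negative one among or below the plasma-positive values, the log2 change was -0.56 (edgeR adjusted p = 0.1743). The testis-associated Psma8 was at 4.47, 6.29, 13.45 and 11.4 CPM in the plasma-negative and at 4.07, 8.54, 17.2 and 2.79 CPM in the plasma-positive libraries, a log2 change of -0.12 (SE 0.66) amid wide overlap. Psmb11 had 0 counts in every library, where the 3 counts that 0 allows correspond to 0.133 to 1.01 CPM.

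The beta ring was higher by 31.6%, at 464.5 ± 66.9 in the plasma-negative and 611 ± 27.8 CPM in the plasma-positive libraries (SD, n = 4), without overlap, and all 7 of its genes had a log2 change above 0. The structural subunits Psmb1, Psmb2 and Psmb3 were at 0.31, 0.28 and 0.42. Psmb2 was at 0.081 without plasma-negative replicate 3 and at 0.49 without plasma-negative replicate 4, and Psmb1 at 0.47 without the latter. Psmb4 (chr3:94884093-94886961), also structural, was at 67.7, 73.2, 67.8 and 89.2 CPM in the plasma-negative and at 94.7, 100.3, 127.5 and 97.1 CPM in the plasma-positive libraries. The groups did not overlap, and its log2 change was 0.50 (SE 0.17, edgeR adjusted p = 0.1907).

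Among the 3 catalytic subunits, Psmb6 (chr11:70525367-70527858) had the largest log2 change as fitted. With the length and GC correction it was at 0.45, below Psmb7 at 0.57. Psmb6 was at 102.6, 73.5, 93.5 and 76.7 CPM in the plasma-negative and at 121.3, 117.2, 136.2 and 145.0 CPM in the plasma-positive libraries, or 86.6 ± 13.8 and 129.9 ± 12.95 CPM (SD, n = 4). All plasma-positive libraries lay above all plasma-negative ones, with a log2 change of 0.58 (SE 0.16) and the lowest adjusted p of all subunits, 0.102 by edgeR.

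Psmb7 (chr2:38588036-38644087) was at 31.1, 33.6, 41.8 and 27.9 CPM in the plasma-negative and at 52.1, 43.9, 40.2 and 54.1 CPM in the plasma-positive libraries. Plasma-positive replicate 3 lay below plasma-negative replicate 3, the only crossing, and the log2 change was 0.50 (SE 0.23, edgeR adjusted p = 0.3585). Psmb5 (chr14:54614119-54618022) was at 30.6, 29.1, 38.1 and 48.1 CPM in the plasma-negative and at 38.3, 38.8, 38.0 and 46.9 CPM in the plasma-positive libraries. The groups overlapped broadly, and its log2 change was 0.16 (SE 0.24, edgeR adjusted p = 0.8455). Differences between the catalytic subunits were not tested.

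Psmb10 (chr8:105935735-105938444), the subunit that replaces Psmb7 in the immunoproteasome, was at 76.2, 56.4, 95.8 and 70.3 CPM in the plasma-negative and at 116.3, 111.4, 121.5 and 110.7 CPM in the plasma-positive libraries. The plasma-positive libraries were all higher and spread less, at 115.0 ± 5.005 against 74.7 ± 16.3 CPM (SD, n = 4). The log2 change was 0.62 (SE 0.18, edgeR adjusted p = 0.1184).

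**Figure D2:**
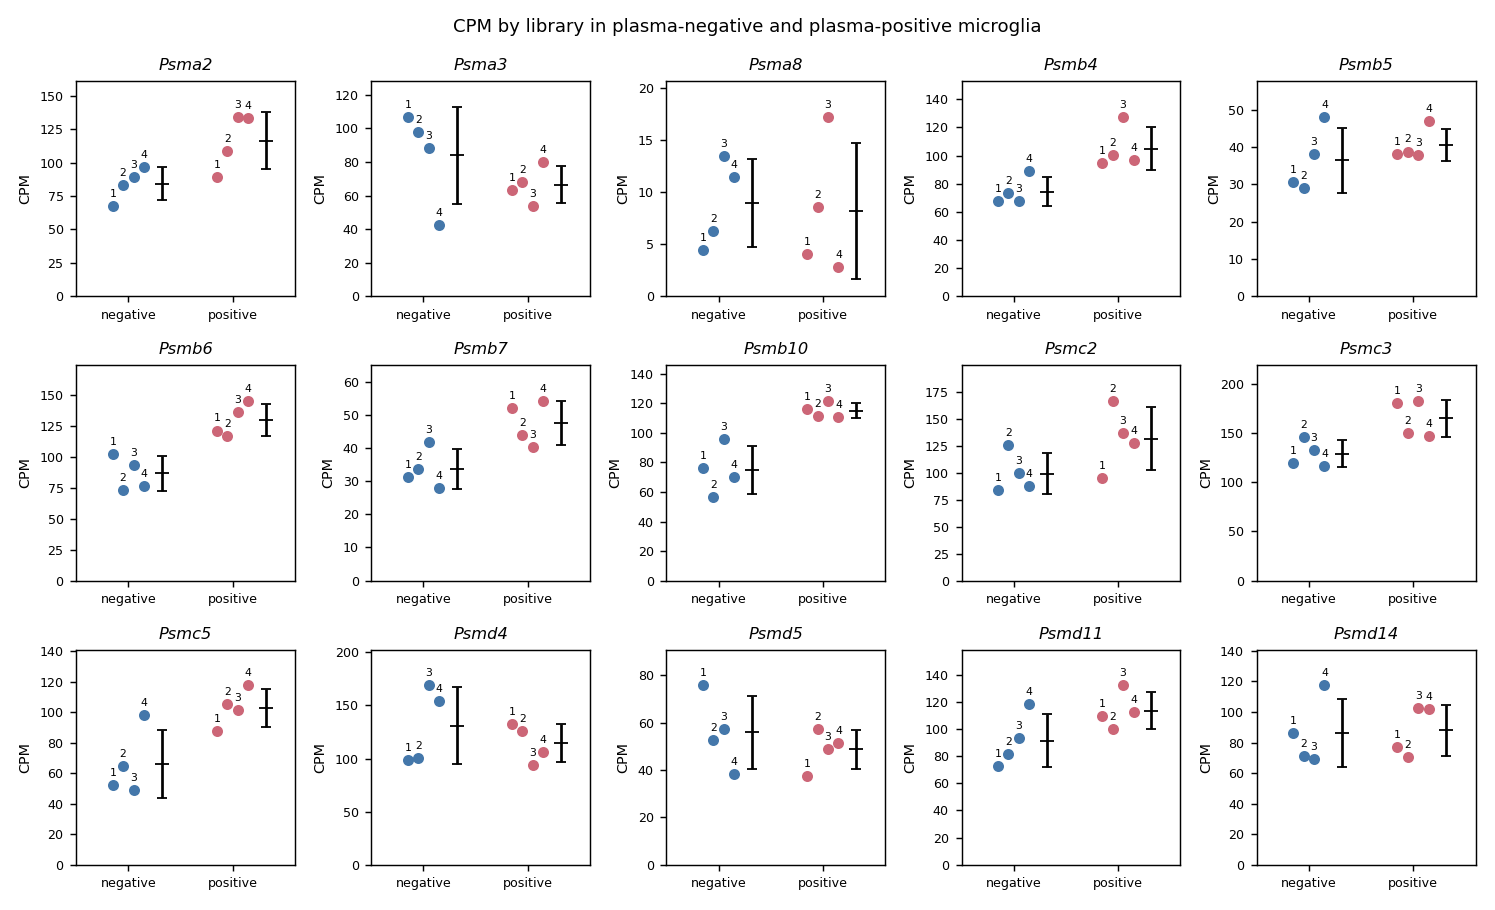
CPM in each library of the 15 subunits described by library in the text, 1 panel per gene with its own axis starting at 0. Points are libraries with their replicate numbers and bars give the mean and SD of 4. Psmb4, Psmb6, Psmb10 and Psmc3 show no overlap between the groups, and the other panels overlap.

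In the regulatory particle, the ATPase ring, which docks on the alpha ring, summed to 506 ± 52.05 in the plasma-negative and 645 ± 39.3 CPM in the plasma-positive libraries (SD, n = 4), 27.4% higher and without overlap, and all 6 of its genes had a log2 change above 0. The 3 non-ATPase genes of the base summed to 337 ± 25.7 and 323.5 ± 20.4 CPM, and the 8 lid genes to 727 ± 76.55 and 806 ± 59.35 CPM, both with overlap. The 3 assembly factors summed to 129 ± 17.2 and 127 ± 15.5 CPM. Median log2 changes were 0.34 for the ATPases, -0.05 for the other base genes, 0.19 for the lid and -0.14 for the assembly factors, beside 0.47 for the alpha and 0.42 for the beta ring. With single libraries left out, the median ran from 0.28 to 0.36 for the ATPases, from -0.099 to 0.021 for the other base genes and from 0.096 to 0.24 for the lid, where the lowest was without plasma-positive replicate 3. For the assembly factors it ran from -0.24 to 0.32, the latter without plasma-negative replicate 4. Differences between the layers were not tested.

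Psmc5 (chr11:106256154-106263120) had the largest log2 change of all subunits as fitted, 0.65 (SE 0.22, edgeR adjusted p = 0.2031). With the length and GC correction it was at 0.51, below Psma2 (0.59), Psmb7 (0.57) and Psma5 (0.54). Psmc5 was at 52.6, 64.95, 48.85 and 97.9 CPM in the plasma-negative and at 87.5, 105.6, 101.4 and 117.6 CPM in the plasma-positive libraries. Plasma-negative replicate 4 was the one that overlapped. Without it, Psmc5 was called, with a log2 change of 0.90 and an edgeR adjusted p of 0.0472, in a fit that called 1.45% of all genes.

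Psmc3 (chr2:91054009-91066369) was at 119.8, 146.3, 132.9 and 116.8 CPM in the plasma-negative and at 180.2, 149.9, 182.3 and 146.8 CPM in the plasma-positive libraries. The groups did not overlap, though plasma-positive replicate 4 exceeded plasma-negative replicate 2 only slightly, and the log2 change was 0.35 (SE 0.14, edgeR adjusted p = 0.2684). Psmc2 (chr5:21785283-21803787) was at 83.6, 125.9, 99.7 and 87.5 CPM against 95.05, 166.2, 137.0 and 127.8 CPM, with overlap and a log2 change of 0.41 (SE 0.195, edgeR adjusted p = 0.3907). Log2 changes of the other ATPases were 0.07 for Psmc1, 0.34 for Psmc4 and 0.21 for Psmc6. Psmc4 was at 0.61 without plasma-negative replicate 4, and at 0.18 without plasma-positive replicate 4.

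Among subunits that handle ubiquitin, Psmd4 and Psmd14 had overlapping groups. Psmd4 (chr3:95032694-95042614), a ubiquitin receptor of the base, was at 99.0, 100.4, 168.8 and 154.4 CPM in the plasma-negative and at 132.8, 125.8, 94.1 and 106.0 CPM in the plasma-positive libraries. The plasma-positive values lay mostly inside the wide plasma-negative range, with a log2 change of -0.19 (SE 0.20, edgeR adjusted p = 0.7639). Psmd14 (chr2:61711694-61800376), the deubiquitinase of the lid, was at 86.2, 71.2, 69.5 and 117.4 CPM and at 77.1, 70.7, 102.4 and 102.0 CPM, with overlap and a log2 change of 0.04 (SE 0.21, edgeR adjusted p = 0.9611).

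Psmd11 (chr11:80428615-80473248), a scaffold subunit of the lid, was at 72.75, 81.7, 93.4 and 118.1 CPM in the plasma-negative and at 109.6, 99.6, 132.0 and 112.5 CPM in the plasma-positive libraries. Plasma-negative replicate 4 again lay among the plasma-positive values, and the log2 change was 0.32 (SE 0.18, edgeR adjusted p = 0.4822). Other lid genes had log2 changes of 0.24 (Psmd3), -0.08 (Psmd6), 0.10 (Psmd7), 0.21 (Psmd8), 0.16 (Psmd12) and 0.26 (Psmd13). Psmd8 was at 0.41 without plasma-positive replicate 2 and at 0.067 without plasma-positive replicate 3, and Psmd13 at 0.46 without plasma-negative replicate 2 and at 0.13 without plasma-positive replicate 1. The large scaffold subunits of the base were at -0.05 (Psmd1) and 0.08 (Psmd2). Psmd5 (chr2:34849734-34874968), a chaperone of base assembly, was at 75.7, 52.5, 57.4 and 38.4 CPM and at 37.6, 57.4, 48.7 and 51.3 CPM, with overlap and a log2 change of -0.21 (SE 0.24, edgeR adjusted p = 0.7811). The other assembly factors were at 0.36 (Psmd9) and -0.14 (Psmd10).

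**Figure D3:**
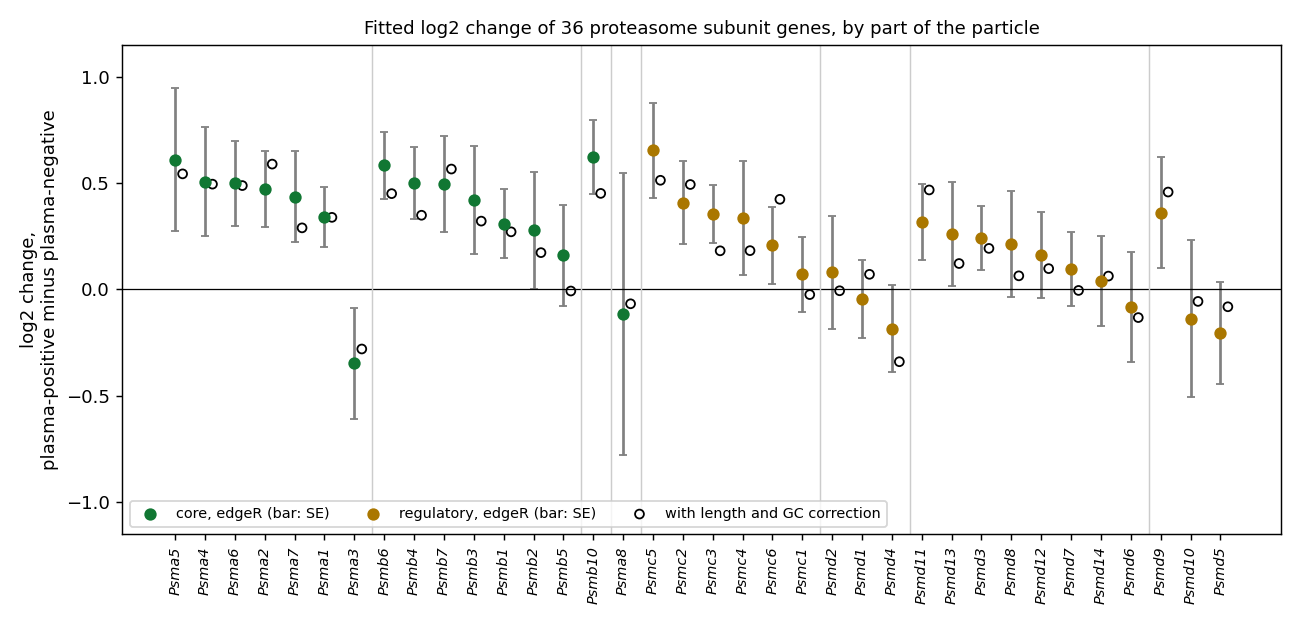
Log2 change (vertical axis, plasma-positive minus plasma-negative, edgeR) of each of the 36 tested subunits with its standard error as a bar, in sections by place in the particle, core in green and regulatory in ochre, with the value after the length and GC correction as an open circle. Core genes lie mostly above 0, with a median of 0.45, and regulatory genes closer to it, with a median of 0.18.

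Genes with short transcripts tended to have higher log2 changes in these libraries. Over the 5176 genes at 32 CPM or more, the rank correlation of the log2 change with exon length was -0.457 and with GC content 0.208, across genes, which are not independent replicates. Median exon lengths were 2335 bases for the core, 2938.5 for the regulatory and 3975.5 for all tested genes. With a correction for length and GC content fitted over all genes, the core median was 0.34 and the regulatory median 0.08, against 0.02 for all tested genes. The difference between the medians was then 0.26, against 0.27 without the correction. By layer the corrected medians were 0.49 for the alpha ring, 0.32 for the beta ring, 0.30 for the ATPases, -0.0071 for the other base genes, 0.080 for the lid and -0.057 for the assembly factors. No subunit was called in the corrected fit, which called 0.527% of all genes.

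**Figure D4:**
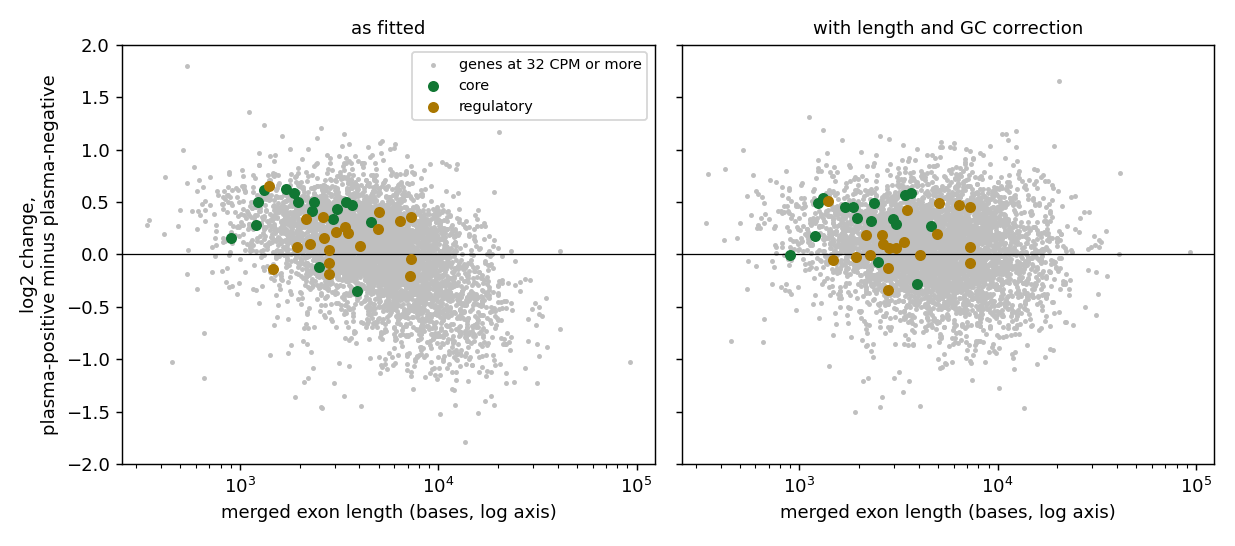
Log2 change (vertical axis) against exon length in bases (log axis) for genes at 32 CPM or more in grey, with core subunits in green and regulatory subunits in ochre, as fitted (left) and with the length and GC correction (right). Log2 changes fall with exon length over all genes on the left (rank correlation -0.457), less so on the right (-0.116).

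Levels per length, in the authors' RPKM averaged over all 8 libraries, ranged widely. Among the 31 standard subunits they ran from 9.12 RPKM for Psmb7 to 86.1 for Psma6. RPKM divides by the merged length of all annotated exons, 3421 bases for Psmb7 and 1234 for Psma6. The order therefore also depends on the annotation. Psma6 was at 68.1 ± 21.7 RPKM in the plasma-negative and 104.2 ± 7.57 in the plasma-positive libraries (SD, n = 4). It was followed by Psmb2 at 52.75, Psmc5 at 46.8, Psmd7 at 45.0, Psmb6 at 44.55, Psmc3 at 43.3 and Psmb10 at 42.9 RPKM. Psmb3 at 10.6 and Psmd1 at 10.98 RPKM were next above Psmb7. With both groups pooled, each gene overlapped over its libraries with its neighbours in this order, apart from Psma8 at 2.62 RPKM and Psmb11, which is listed at 0. Within the plasma-positive group 4 more neighbours were separate: Psma6 (98.3 to 115.1 RPKM) from Psmb2 (45.98 to 70.6), Psmb10 from Psma1, Psmb4 from Psmd4, and Psmb7 from Psmd5. Within the plasma-negative group no other neighbours were. The 14 standard core genes had a median of 27.925 RPKM and the 17 standard regulatory genes 23.6 RPKM.

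Pseudogenes can take reads from their parent gene, and 12 of the 37 genes had pseudogene copies in the same direction in the annotation, 26 in all at 90% identity or more over at least 200 bases. Psmc2 also matched 25 pseudogenes on the opposite strand and, over both strands, other genes such as Kcnq1ot1, Cyb5r4 and D10Wsu102e. These matches are not in that count and need not be copies of Psmc2. Standard subunits with a copy in the same direction had a median of 20.2 RPKM (12 genes, from 9.12 to 44.55). Those without had a median of 29.04 RPKM (19 genes, from 10.98 to 86.1), so the ranges overlapped widely. Whether copies lower the levels was not tested. Psmb3 had 7 copies and Psma3 had 3, so their levels are uncertain. Exon overlap was separate from this, and 9 genes shared exon sequence with an overlapping gene, at most 0.255 of the exon length (Psmd9).

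**Figure D5:**
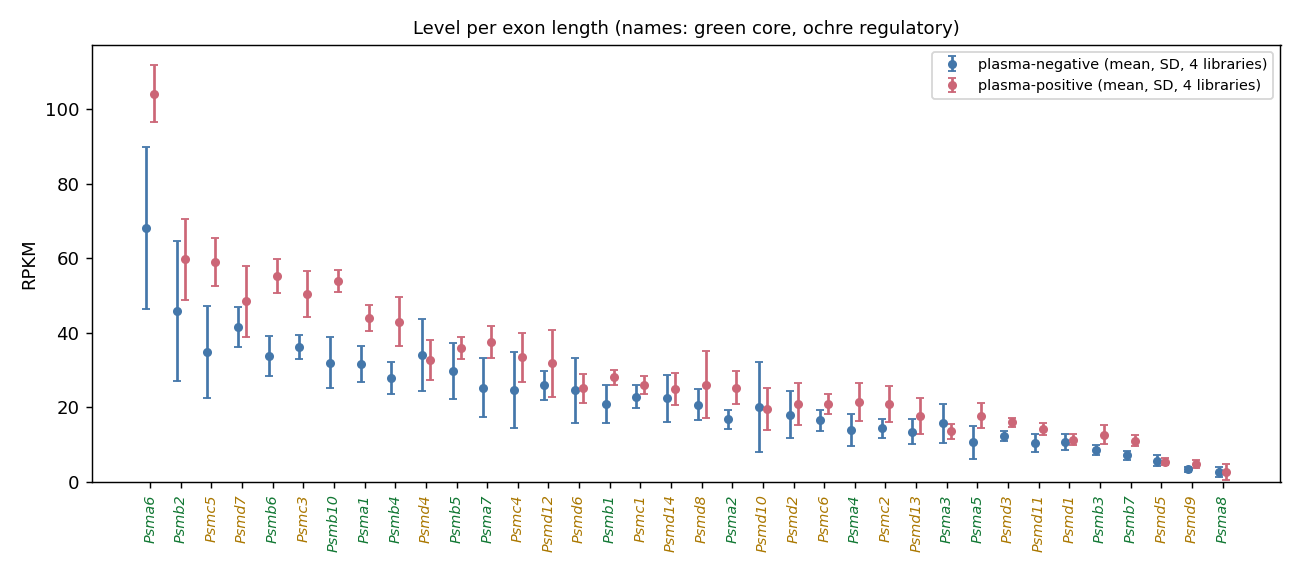
Mean RPKM of each subunit in plasma-negative (blue) and plasma-positive (red) microglia with SD bars over 4 libraries, ordered by the mean over 8 libraries, without Psmb11, which is listed at 0. Standard subunits range in that mean from 86.1 (Psma6, left) to 9.12 (Psmb7).

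The spread within a group was larger among plasma-negative libraries. The median coefficient of variation of the subunits' CPM was 22.7% in the plasma-negative and 16% in the plasma-positive libraries. For all genes at 32 CPM or more it went the same way, at 20.75% and 17.3%, though some subunits lie below that level. The plasma-negative group holds the library with the fewest counts, replicate 4.

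Other genes of the pathway were taken from 7 lists, and edgeR called 0 of their 36 tested genes, with 5 at an unadjusted p under 0.05, all higher, against 7.13% of all genes. DESeq2 called 3 (Psmb8, Psme1 and Ubb), where it called 6.43% of all genes. Limma called these and Psme2 on either RPKM scale, at 3.37% of all genes with the pseudocount of 1 and 3.25% with 0.1. The inducible core subunit Psmb8 was at 187 ± 16.04 in the plasma-negative and 253 ± 16.6 CPM in the plasma-positive libraries (SD, n = 4), without overlap, with a log2 change of 0.44 (SE 0.11, edgeR adjusted p = 0.0847). Psmb9, another inducible core subunit, was at -0.03. Together they summed to 211 to 247 CPM in the plasma-negative and 278 to 331 CPM in the plasma-positive libraries. Psme1, a subunit of the interferon-inducible activator, was at 91.7 ± 6.81 and 138 ± 17.45 CPM (SD, n = 4), without overlap, with a log2 change of 0.60 (SE 0.15, edgeR adjusted p = 0.0678). Its partner Psme2 was at 0.54 (edgeR adjusted p = 0.2329), also without overlap. The 5 genes of activators and the inhibitor summed to 205 to 281 CPM in the plasma-negative and 315 to 379 CPM in the plasma-positive libraries, with a median log2 change of 0.54, and 4 of the 5 were above 0, with Psme4 at -0.18.

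All 6 ubiquitin genes and activating enzymes had a log2 change above 0, with a median of 0.35, and summed to 573.5 to 637 and 689 to 770 CPM, without overlap. The polyubiquitin gene Ubb was at 138 ± 4.35 and 173 ± 3.38 CPM (SD, n = 4), with a log2 change of 0.32 (SE 0.11, edgeR adjusted p = 0.1989), and the activating enzyme Uba1 at 0.40 (edgeR adjusted p = 0.4825). The sums of the 4 lists that follow overlapped between the groups. Of 5 other subunits and bound enzymes 3 were above 0 (median 0.05), with Sem1 at 0.38 and Adrm1, another ubiquitin receptor, at -0.45 (SE 0.29, edgeR adjusted p = 0.5522). Adrm1 was at 25.03 ± 5.18 CPM in the plasma-negative and 18.3 ± 0.698 CPM in the plasma-positive group (SD, n = 4), with every plasma-positive library below every plasma-negative one. Of 6 assembly chaperones and scaffolds 3 were above 0 (median 0.06), with Psmg4 at 0.69 and Ecpas at -0.54. Of 8 shuttles and segregase genes 5 were above 0 (median 0.06), with the segregase Vcp at 0.29. Of 4 genes of transcriptional control 2 were above 0 (median -0.09), with Nfe2l1, the factor that drives proteasome genes when the proteasome is inhibited, at -0.24 and the deglycosylase Ngly1 that processes it at -0.37.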

How the data were processed

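RNA of sorted microglia was made into libraries by the Smart-seq2 protocol, per the labels' protocols. The authors deposited raw read counts per gene and RPKM values, which scale reads by exon length and library size. The submitters' processing notes name bcl2fastq, Trim Galore, STAR, HTSeq and build mm10, and the file headers show that only top alignments were counted. Versions, the strand setting and the treatment of reads with several matches are not given in the sources used here, so reads from overlapping genes and near-identical copies cannot be told apart.

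The counts were tested with edgeR 4.0.16 (R 4.3.3) by a quasi-likelihood test with TMM factors and the default expression filter, over all 8 libraries without covariates. Adjusted p-values are Benjamini-Hochberg values over all 13277 tested genes, with a threshold of 0.05. CPM values use the TMM-scaled library sizes. Alternatives used DESeq2 1.42.0, limma 3.58.1 on log2(RPKM + 1) and log2(RPKM + 0.1), other size factors and filters, thinned counts, a correction for exon length and GC content (loess, span 0.3), and each library left out in turn. The edgeR fit was tested on simulated data. Exon lengths, overlaps and copies come from the GENCODE annotation on GRCm38, where 35546 gene IDs of the table matched, and promoters from RefSeq (GRCm38.p6).

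The genes and lists were chosen with earlier results of these data known, and the promoter motifs after the values were seen. Values per library are given for the 4 core and 4 regulatory genes with the smallest p, the 2 of each with the lowest log2 change, the catalytic subunits, Psmd14 and Psmd4, and for other lists the 2 genes with the smallest p are named, except 1 that is not reported here. Sums over gene lists are descriptions and carry no test. With 4 libraries per group, intervals from depth were not used, and the 3-count floor covers counting error only. Paaf1 and the 16 columns of standard deviations in the deposited tables were not analysed here.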

Additional observations from a re-analysis of the deposited data

Results flagged for a closer look

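Of 78 groups of 4 libraries examined (36 subunits, 2 sums and their ratio, in each group), 6 held a library whose gap to the nearest other, over the group's range, exceeded Dixon's 95% critical value, which chance gives in about 1 in 20 groups. In plasma-positive microglia these were Psma5 in replicate 1 (37.29 CPM, nearest other 27.86), Psmb1 in replicate 3 (144.4 CPM, nearest other 166.1), Psmb4 in replicate 3 (127.5 CPM, nearest other 100.3) and Psmb5 in replicate 4 (46.92 CPM, nearest other 38.84). In plasma-negative microglia they were Psmd1 (72.01 CPM, nearest other 113.0) and Psmd10 (74.7 CPM, nearest other 29.63), both in replicate 4, the library with the fewest counts.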

How the results depend on the processing

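The core median stayed above the regulatory median in every alternative run, by 0.22 to 0.30 on the log2 scale when single libraries were left out and by 0.25 to 0.33 otherwise, against 0.27 as reported. The core median ranged from 0.39 to 0.48 and the regulatory median from 0.11 to 0.20 with single libraries left out. The regulatory median was 0.067 with library totals only, 0.0835 with the length and GC correction and 0.0841 with the replicate block added. With library totals only, the median of all genes was -0.11, and the fit split calls into 64 higher and 163 lower, against 112 and 75. Of all genes tested, 187 were called, against 963 by DESeq2, 447 by limma on log2(RPKM + 1) (388 higher and 59 lower), 432 on log2(RPKM + 0.1) (370 and 62), 70 with the length and GC correction (54 and 16), and 66 to 203 with single libraries left out. The causes of these moves were not tested. DESeq2 called 2 subunits, limma on log2(RPKM + 1) 3 and on log2(RPKM + 0.1) 2, all core genes. Leaving out single libraries gave 0 to 1 called subunits, Psmc5 without plasma-negative replicate 4, which is the 1 regulatory call.

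The labels give both groups the numbers 1 to 4 but state no pairing. Deviations of same-numbered libraries correlated at 0.0109 to 0.0315, against a mean of -0.00556 for different numbers. Such small values cannot decide whether same-numbered libraries share an animal or a sort, and the main fit treated the libraries as unpaired. The replicate block called 74 genes (52 higher and 22 lower), and 17 (13 and 4) with the length and GC correction, with 0 subunits in both.

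Of the subunits, 10 changed sign in at least 1 alternative, with adjusted p-values of 0.682 or more there. With library totals only the log2 changes were -0.043 for Psmc1, -0.038 for Psmd2, -0.018 for Psmd7 and -0.072 for Psmd14. Limma-voom gave 0.081 for Psmd6 and 0.056 for Psmd10. Limma on log2(RPKM + 1) gave 0.097 for Psmd1, 0.104 for Psmd6 and 0.058 for Psmd10, and on log2(RPKM + 0.1) 0.107, 0.111 and 0.064. The length and GC correction gave -0.0083 for Psmb5, -0.025 for Psmc1, 0.070 for Psmd1, -0.0071 for Psmd2 and -0.0056 for Psmd7, and with the replicate block -0.021 for Psmc1 and Psmd7, 0.090 for Psmd1 and 0.047 for Psmd10. Thinned counts gave 0.080 for Psma8, -0.14 for Psmc1 and -0.19 for Psmd7. With single libraries left out, log2 changes ranged from -0.78 to 0.17 for Psma8, -0.18 to 0.021 for Psmd1, -0.090 to 0.35 for Psmd2, -0.31 to 0.073 for Psmd6, -0.29 to 0.33 for Psmd10, -0.037 to 0.27 for Psmd12 and -0.046 to 0.22 for Psmd14.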
